A study of Sus scrofa with 4 samples.

Results

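The 10 genes described here, CDH1, CDH2, EPCAM, GRHL2, ESRP1, ESRP2, ZEB1, ZEB2, SNAI1 and SNAI2, are regulators and read-outs of the switch between epithelial and mesenchymal cell states. They were chosen by name, with earlier results of these data known, and were followed through the reprogramming of pig fibroblasts. All 10 were found among the 25880 genes of the count table, 9 by their Ensembl identifier and ZEB2 by its position on the pig assembly Sscrofa11.1, and all 10 passed the filter on low counts that left 15739 genes for testing.

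Epithelial cells are held together by E-cadherin (CDH1), which is anchored to the cytoskeleton through catenins, whereas mesenchymal cells such as fibroblasts move singly, carry N-cadherin (CDH2) in its place and deposit matrix. The zinc finger proteins SNAI1, SNAI2, ZEB1 and ZEB2 bind E-box sequences and repress CDH1 and other epithelial genes. GRHL2 is a transcription factor that activates epithelial junction genes and opposes ZEB1, and ESRP1 and ESRP2 are RNA-binding proteins that set the epithelial splicing pattern of many transcripts. Colonies of reprogrammed fibroblasts are known to pass through a mesenchymal-to-epithelial transition, and pluripotent stem cells of the primed kind grow as flat epithelial sheets.

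RNA of 4 cultures from 1 animal was sequenced. The fibroblasts (n = 1, passage 1) came from the ear skin of a post-neonatal pig. Cells resembling neural stem cells (iNSLCs, 1 library, passage 1) were derived from them with the EP-B set of episomal vectors, which carries human OCT4, SOX2, KLF4, L-MYC, LIN28, a dominant-negative mouse Trp53 and EBNA1, together with KLF2, NANOG, GLIS1 and KDM4D, in the medium called NSM. The pluripotent cells (iPSCs, 2 clones, passage 3) arose from such cells in ESM to which TGF-β1, activin A and IWP2, an inhibitor of WNT signalling, were added, and each clone was isolated mechanically as a colony. None of the 10 genes is on the vectors. Cell state and medium changed together between the groups, and for the iPSCs passage too, and these cannot be told apart. The clones share an animal, so that p-values measure only the spread between these clones, and with bulk RNA fewer cells of a type and less RNA per cell cannot be told apart.

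The study describes mouse feeder cells for its cultures of another species, and whether the pig libraries held any was not tested. Total counts ran from 21640374 in iPSC clone 1 to 62421521 in the fibroblasts. The labelled cell types were checked against marker genes. The 12 fibroblast markers summed to 147231 CPM (counts per 1000000 counts, scaled by TMM) in the fibroblasts, 55330 in the iNSLCs, and 926 and 962 in the iPSC clones. Of the 11 pluripotency markers found, 10 rose in iPSCs against fibroblasts, and their sum was 4.21 CPM in fibroblasts, 977 in iNSLCs, 2679 in clone 1 and 2743 in clone 2. The neural stem cell markers summed to 59.3 CPM in fibroblasts, 882 in iNSLCs, and 797 and 904 in the clones, with SOX2 counted in both of these lists. SOX2 had 134 CPM in iNSLCs and 211 and 254 in the clones. Of the 11 neural stem cell markers tested, 8 were called lower and 1 higher in iPSCs against iNSLCs. The shares over all genes were 14.2% lower and 13.2% higher. Blood and immune markers stayed between 8.09 and 20.6 CPM in sum.

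The structural genes of the switch were described first. CDH1 (ENSSSCG00000025652, chromosome 6, 18039318 to 18155990, minus strand) had 3.48 CPM in fibroblasts, 378 in iNSLCs, 802 in iPSC clone 1 and 616 in clone 2. The fibroblast library stood far below the other libraries, and the order from lowest to highest was fibroblast, iNSLC, clone 2 and clone 1. CDH1 rose 204-fold in iPSCs against fibroblasts, to 709 ± 131 CPM (SD, n = 2; edgeR adjusted p = 0.000473), and 1.88-fold against iNSLCs (edgeR adjusted p = 0.0401).

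EPCAM (ENSSSCG00000008429, chromosome 3, 93165219 to 93185715, minus strand), an adhesion molecule of simple epithelia and of pluripotent cells, had 0.561, 58.1, 247 and 172 CPM in fibroblasts, iNSLCs, clone 1 and clone 2. The groups did not overlap, and the fibroblast value rested on 26 counts. EPCAM had the largest ratio of the 10 genes between iPSCs and fibroblasts, a rise of 372-fold to 209 ± 52.9 CPM (SD, n = 2; edgeR adjusted p = 0.000637), and it also rose 3.60-fold against iNSLCs (edgeR adjusted p = 0.0174).

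CDH2 (ENSSSCG00000003722, chromosome 6, 112396329 to 112628946, minus strand) did not fall with the loss of fibroblast genes. Its level was 27.5 CPM in fibroblasts, 373 in iNSLCs, 282 in clone 1 and 381 in clone 2, so that the fibroblasts, the mesenchymal cells of the series, had the lowest value. CDH2, which is also the cadherin of neural stem cells, rose 12.1-fold in iPSCs against fibroblasts (332 ± 70.1 CPM, SD, n = 2; edgeR adjusted p = 0.00116). The iNSLC value lay between the clones, and the log2 ratio of iPSCs to iNSLCs was -0.17 ± 0.21 (SE from edgeR), with no call (edgeR adjusted p = 0.573).

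**Figure D1:**
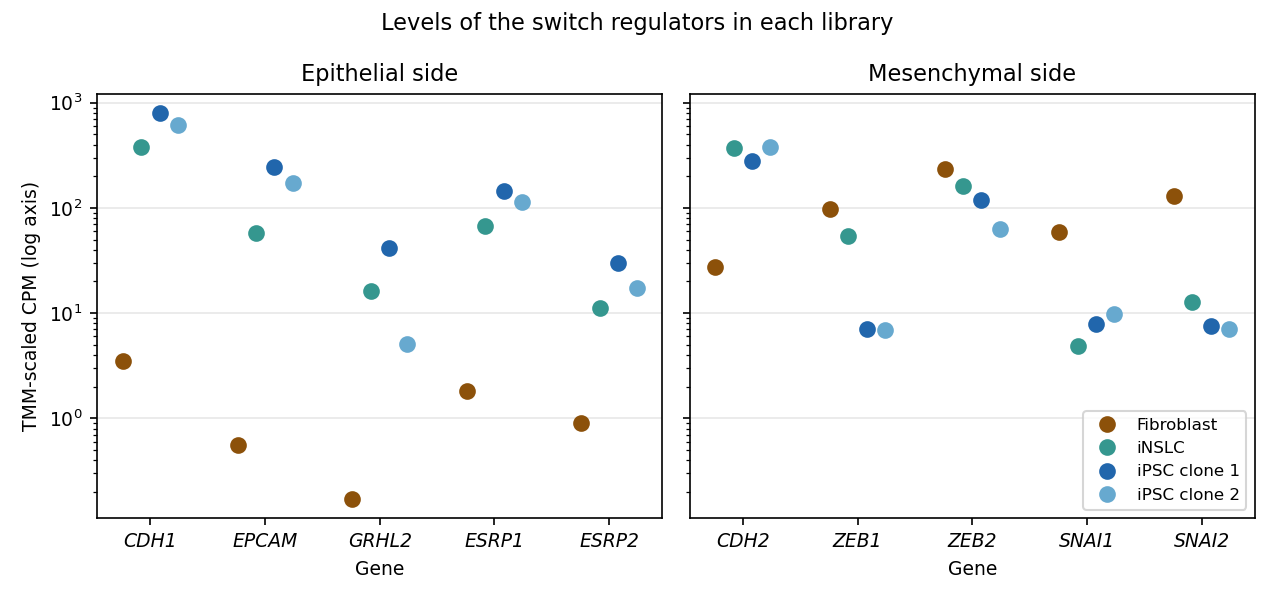
Level of each gene in each library as TMM-scaled CPM on a log axis, with 1 point per library and no error bars, the epithelial genes on the left and the mesenchymal genes on the right. The 5 epithelial genes had their lowest value in the fibroblasts, as did CDH2 among the mesenchymal genes, whereas ZEB1, ZEB2, SNAI1 and SNAI2 had their highest value there.

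Among the epithelial regulators, GRHL2 was the gene that separated the iPSC clones. GRHL2 (ENSSSCG00000006060, chromosome 4, 35371139 to 35565327, minus strand) had 0.173 CPM in fibroblasts (8 counts), 16.4 in iNSLCs (469 counts), 41.4 in clone 1 (980 counts) and 5.09 in clone 2 (233 counts). The iNSLC library lay between the clones, so the iPSC and iNSLC groups overlapped. The ratio to fibroblasts was 240-fold in clone 1 and 29.5-fold in clone 2, and the mean of 23.2 ± 25.7 CPM (SD, n = 2) was 135-fold the fibroblast level. This difference missed the threshold (edgeR adjusted p = 0.0554), and it passed under 5 of 8 alternative settings (adjusted p from edgeR or DESeq2 from 0.000861 to 0.108). Against iNSLCs the log2 ratio was 1.34 in clone 1 and -1.68 in clone 2 (edgeR adjusted p = 0.797).

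The splicing regulators behaved more evenly. ESRP1 (ENSSSCG00000006099, chromosome 4, 41991538 to 42060757, minus strand) had 1.81 CPM in fibroblasts, 66.8 in iNSLCs, 144 in clone 1 and 113 in clone 2. It rose 70.7-fold in iPSCs against fibroblasts, to 128 ± 22 CPM (SD, n = 2; edgeR adjusted p = 0.000544), and 1.92-fold against iNSLCs (edgeR adjusted p = 0.0346). ESRP1 lay 6.43 Mb from GRHL2 on the same chromosome, and the clones differed in ESRP1 by 1.28-fold.

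ESRP2 (ENSSSCG00000035227, chromosome 6, 28802651 to 28814413, minus strand) was the weaker paralog, with 0.907, 11.1, 29.9 and 17.2 CPM in fibroblasts, iNSLCs, clone 1 and clone 2. It rose 26.0-fold in iPSCs against fibroblasts (23.5 ± 8.99 CPM, SD, n = 2; edgeR adjusted p = 0.00389). Against iNSLCs the 2.11-fold difference, present in both clones, was not called (log2 1.06 ± 0.41, SE; edgeR adjusted p = 0.126). Of the exonic bases of ESRP2, 35.5% overlap NFATC3 on the opposite strand, and the counts could not be assigned by strand here. NFATC3 itself had 39.5 CPM in fibroblasts, 43.2 in iNSLCs, 34.6 in clone 1 and 26.2 in clone 2, and its part in the ESRP2 counts was not tested.

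The repressors were highest in fibroblasts and fell by very different amounts. ZEB1 (ENSSSCG00000011025, chromosome 10, 42145751 to 42214205, plus strand) had 98.1 CPM in fibroblasts, 54.5 in iNSLCs, 7.09 in clone 1 and 6.95 in clone 2. On the log2 scale the iNSLCs were closer to the fibroblasts (-0.85) than the iPSCs were to the iNSLCs (-2.96), and the clones were nearly equal. ZEB1 fell 14.0-fold in iPSCs against fibroblasts (7.02 ± 0.101 CPM, SD, n = 2; edgeR adjusted p = 0.000403) and 7.76-fold against iNSLCs (edgeR adjusted p = 0.00269), the largest of the 10 differences between iPSCs and iNSLCs. The gene model that was counted covers 33.7% of the span of ZEB1 in RefSeq, so reads outside it are missing from every library. Whether the missing share was equal between libraries was not tested.

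ZEB2 (ENSSSCG00000021343, chromosome 15, 7498897 to 7632655, plus strand) changed least of the repressors. Levels were 236 CPM in fibroblasts, 162 in iNSLCs, 119 in clone 1 and 63.3 in clone 2, a falling order in which the clones were farther apart than the iNSLCs and clone 1. ZEB2 was lower by 2.59-fold in iPSCs against fibroblasts (90.9 ± 39.1 CPM, SD, n = 2; edgeR adjusted p = 0.0369), and this call was lost under 4 of 8 alternative settings, with adjusted p up to 0.118 (DESeq2). The log2 ratio to iNSLCs was -0.84 ± 0.38 (SE; edgeR adjusted p = 0.171).

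SNAI1 (ENSSSCG00000032613, chromosome 17, 51546393 to 51554226, plus strand) had its lowest level in the intermediate cells. It had 59.2 CPM in fibroblasts, 4.92 in iNSLCs, 7.94 in clone 1 and 9.84 in clone 2. SNAI1 fell 6.66-fold in iPSCs against fibroblasts (8.89 ± 1.34 CPM, SD, n = 2; edgeR adjusted p = 0.00110). Both clones were above the iNSLCs, by 1.61-fold and 2.0-fold, a difference that was not called (log2 0.87 ± 0.24, SE; edgeR adjusted p = 0.0627).

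SNAI2 (ENSSSCG00000039568, chromosome 4, 79264878 to 79271802, plus strand), which is also a neural crest factor, had 129, 12.9, 7.60 and 7.02 CPM in fibroblasts, iNSLCs, clone 1 and clone 2. It fell 17.7-fold in iPSCs against fibroblasts, to 7.31 ± 0.413 CPM (SD, n = 2; edgeR adjusted p = 0.000402), the largest fall of the repressors, and 1.77-fold against iNSLCs (edgeR adjusted p = 0.0260). The list of 12 neural crest markers, which holds SNAI2, summed to 427 CPM in fibroblasts, 319 in iNSLCs, 316 in clone 1 and 206 in clone 2, and SNAI2 and ETS1 (238 CPM) made up most of the fibroblast sum.

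Counted together, iPSCs had 5 of the 10 genes called higher than fibroblasts had them and 4 lower, and GRHL2 was not called. The background was 57.8% of the 15739 genes, with 29.6% called up and 28.2% called down, so a call by itself was common in this comparison. The median log2 ratio was 7.07 for the 5 epithelial genes and -2.74 for the 5 mesenchymal genes, beside 0.13 for all genes tested. The epithelial median was the value of GRHL2, and it was 5.96 without clone 1 and 7.85 without clone 2. The mesenchymal genes include CDH2, which rose (log2 3.59). With scaling by total counts in place of TMM, which moved every log2 ratio to the fibroblasts up by 0.57, the 10 genes gave 6 higher and 3 lower calls, and the split over all genes moved from 4651 higher and 4440 lower to 7265 and 2754.

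Against iNSLCs, CDH1, EPCAM and ESRP1 were called higher in iPSCs, ZEB1 and SNAI2 lower, and 5 genes were not called. The background was 27.3% of genes called, 13.2% higher and 14.2% lower. The median log2 ratio was 0.94 for the epithelial and -0.83 for the mesenchymal genes, beside a median near 0 for all genes. In this comparison the call for SNAI2 was lost when only the 3 libraries compared were fitted (adjusted p = 0.0528, edgeR), and the calls for CDH1 and ESRP1 were lost without a filter on low counts (adjusted p = 0.0827 and 0.0739, edgeR).

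The step from fibroblasts to iNSLCs had 1 library on each side, so it was described by size, with no p-value, and a gene was counted when it differed by at least 4-fold and reached 10 CPM in the higher library. Of 10079 genes at that level, 18.1% differed by this size, 9.20% higher and 8.88% lower in iNSLCs. All 5 epithelial genes were higher: CDH1 by 109-fold (95% exact conditional binomial interval 93.0 to 128), EPCAM by 104-fold (70.4 to 159), GRHL2 by 94.7-fold (47.7 to 221), ESRP1 by 36.8-fold (29.6 to 46.4) and ESRP2 by 12.3-fold (8.88 to 17.4). These intervals cover counting error only. CDH2 was higher by 13.5-fold (12.8 to 14.4).

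The repressors split into pairs at this step. SNAI1 was 12.0-fold lower in iNSLCs (10.2 to 14.3) and SNAI2 9.98-fold lower (8.99 to 11.1). ZEB1 was 1.80-fold lower (1.70 to 1.91) and ZEB2 1.46-fold lower (1.41 to 1.51), which did not reach the 4-fold size, and the direction of ZEB2 turned with total-count scaling (log2 0.04). In the iNSLCs, CDH1 at 378 CPM and ZEB1 at 54.5 CPM were therefore present in the same library, and whether the same cells held both was not tested.

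The share of the log2 distance from fibroblasts to iPSCs that the iNSLC library had covered put these differences on a common scale, with the fibroblast and iPSC values shared between the steps. Taken to the mean of the clones, it was 88.2% for CDH1, 78.4% for EPCAM, 92.9% for GRHL2, 84.7% for ESRP1 and 77.0% for ESRP2. For GRHL2 the clones lay on opposite sides of the iNSLCs (log2 1.34 in clone 1 and -1.68 in clone 2). The iNSLC value of GRHL2 was thus beyond that of clone 2. For SNAI2 the share was 80.1%, and for CDH2 and SNAI1 it exceeded the whole distance, at 105% and 131%. It was 22.3% for ZEB1 and 39.5% for ZEB2. ZEB1 was thus the member whose difference lay mainly in the second step in both clones, and for ZEB2 this held in clone 2 (log2 -1.35 after -0.54) but not in clone 1 (-0.45).

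Other cell types moved with the same step. Fibroblast markers were still at 55330 CPM in sum in the iNSLCs, beside 147231 in the fibroblasts. Of the 12 markers, 5 were at least 4-fold lower in iNSLCs and 0 higher (median log2 ratio -1.77), beside 8.88% of all genes lower. COL3A1 changed little, at 16660 CPM in iNSLCs beside 19214 in the fibroblasts, and had 131 and 159 in the clones. The 7 keratinocyte markers found of 10 listed summed to 7.52 CPM in fibroblasts, 81.6 in iNSLCs, 11.1 in clone 1 and 6.34 in clone 2, and KRT1, a keratin of differentiating epidermis, had 41.0 CPM in iNSLCs and 0 counts in both clones. KRT5 and KRT14, which define basal keratinocytes, were not found by name. The part of fibroblasts and keratinocyte-like cells in the iNSLC values of the 10 genes was not tested.

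**Figure D2:**
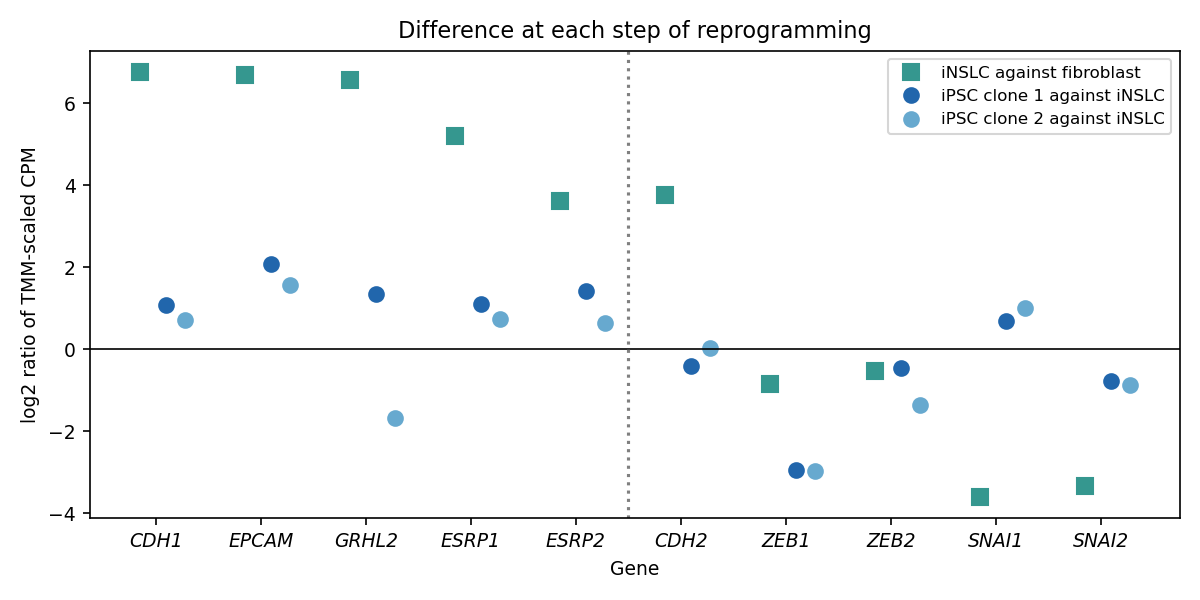
Log2 ratio of TMM-scaled CPM for each gene at each step, with squares for iNSLCs against fibroblasts and circles for each iPSC clone against iNSLCs, epithelial genes left of the dotted line. The first step was larger than the second in both clones for all genes but ZEB1, which showed the opposite order, and ZEB2, where the clones differed, and the clones lay on opposite sides of 0 for GRHL2 and CDH2.

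Ratios between paired genes within a library do not depend on scaling between libraries, and they were taken as counts per kilobase of the gene models. CDH1 per kilobase was 0.115 of CDH2 in fibroblasts (95% exact binomial interval 0.0967 to 0.135), 0.919 in iNSLCs (0.895 to 0.944), 2.58 in clone 1 (2.5 to 2.65) and 1.46 in clone 2 (1.44 to 1.49). The cadherins were thus nearly even in iNSLCs, and E-cadherin led in both iPSC clones by unequal amounts. ZEB1 to ZEB2 stood at 1.39 in fibroblasts (1.34 to 1.44), 1.12 in iNSLCs (1.06 to 1.19), 0.199 in clone 1 (0.170 to 0.233) and 0.366 in clone 2 (0.325 to 0.411), with ZEB1 counted over its incomplete model. The ratio of SNAI1 to SNAI2 was 0.647 in fibroblasts (0.618 to 0.677), 0.537 in iNSLCs (0.439 to 0.653), 1.48 in clone 1 (1.20 to 1.82) and 1.98 in clone 2 (1.71 to 2.29). Per kilobase, ZEB2 was therefore the leading ZEB transcript and SNAI1 the leading SNAI transcript in the iPSCs, each the reverse of the order in fibroblasts and iNSLCs. For the SNAI pair in clone 1 this lead rests on the lengths of the gene models. Without a correction for length, SNAI1 and SNAI2 were nearly even there (188 and 180 counts, log2 0.06), and SNAI1 led in clone 2 (log2 0.49). For the ZEB pair this order rests on the length of the ZEB1 model, since without a correction for length ZEB2 led in every library (log2 -1.26 in fibroblasts and -1.57 in iNSLCs).

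The ESRP paralogs kept their order. ESRP1 per kilobase was 2.54 times ESRP2 in fibroblasts (1.73 to 3.77), where they had 84 and 42 counts, 7.62 times in iNSLCs (6.76 to 8.61), 6.11 times in clone 1 (5.63 to 6.63) and 8.33 times in clone 2 (7.73 to 8.99).

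**Figure D3:**
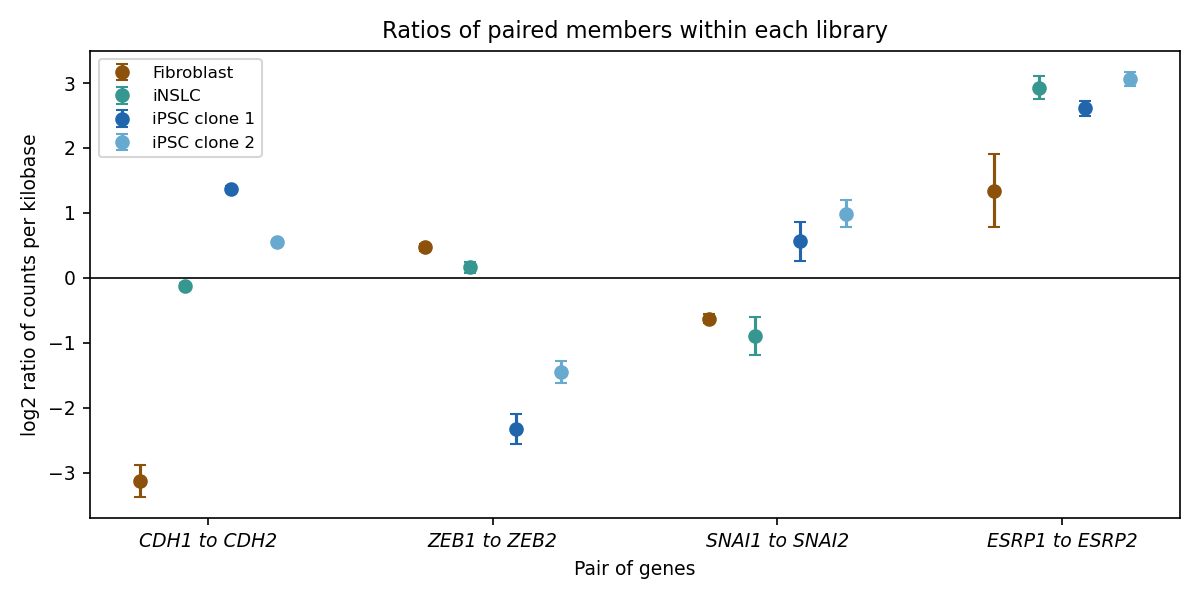
Log2 ratio of counts per kilobase for 4 pairs of genes within each library, with 95% exact binomial intervals for counting error. CDH1 to CDH2 is at -3.13 in fibroblasts and 1.36 and 0.55 in the clones, and the ZEB and SNAI pairs cross 0 in opposite directions between iNSLCs and iPSCs.

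Ranked within a library by CPM per kilobase (for ZEB1 over its incomplete model), the 4 repressors led in fibroblasts, with ZEB1 at 28.9, SNAI2 at 21.5, ZEB2 at 20.8 and SNAI1 at 13.9. In iNSLCs the order began with CDH2 at 72.8 and CDH1 at 66.9, followed by ZEB1 at 16.1 and ZEB2 at 14.3. Both iPSC clones began with CDH1 (142 and 109), CDH2 (55.1 and 74.5), EPCAM (39.2 and 27.3) and ESRP1 (22.6 and 17.7). ZEB2 came next in each clone, at 10.5 and 5.60 CPM per kilobase, above GRHL2 and ESRP2.

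The clones were compared by size, since they are 2 libraries of 1 group. Of 9250 genes at 10 CPM or more in the higher clone, 1.50% differed by at least 2-fold, 1.26% lower and 0.238% higher in clone 2. GRHL2 was 8.13-fold lower in clone 2 (95% exact conditional binomial interval 7.04 to 9.41), beside 0.357% of those genes that differed by 4-fold or more and 0.119% that differed by as much. ZEB2 was 1.87-fold lower (1.78 to 1.98) and ESRP2 1.74-fold lower (1.57 to 1.93), both outside the central 95% of genes, which ran from -0.69 to 0.52 on the log2 scale. EPCAM was 1.44-fold lower, CDH1 1.30-fold lower and CDH2 1.35-fold higher in clone 2, within that range. All 5 epithelial genes were lower in clone 2, of which CDH1, EPCAM and ESRP1 lay within that range. The median over all genes at this level was 0.03. Among the repressors, ZEB2 was lower beyond the range, ZEB1 and SNAI2 were nearly equal (log2 -0.03 and -0.12), and SNAI1 was higher (log2 0.31).

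In the pathway lists described further on, 10 genes differed between the clones by this size, all lower in clone 2, and those named here are given for that reason after their values were seen. Among them were the transcription factors TWIST2 (39.9 and 7.23 CPM in clones 1 and 2), PRRX1 (94.3 and 25.4), GSC and TFAP2C, the surface genes CLDN4 (143 and 52.6) and SPINT2, the splicing regulators MBNL1 (96.6 and 28.2) and MBNL2, and the activin subunit gene INHBA. The set thus held mesenchymal as well as epithelial genes. Of all genes at 10 CPM or more in the higher clone, 1.26% were lower and 0.238% higher in clone 2 by this size. At that level the set was 3 of 9 other mesenchymal transcription factors, 1 of 7 other epithelial ones and 3 of 25 junction genes. It also held 2 of 10 splicing regulators, 1 of 19 signals and 0 genes of the remaining pathway lists. Fibroblast markers summed to 926 CPM in clone 1 and 962 in clone 2 and keratinocyte markers to 11.1 and 6.34, and the part of other cells in the clone difference was not tested.

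**Figure D4:**
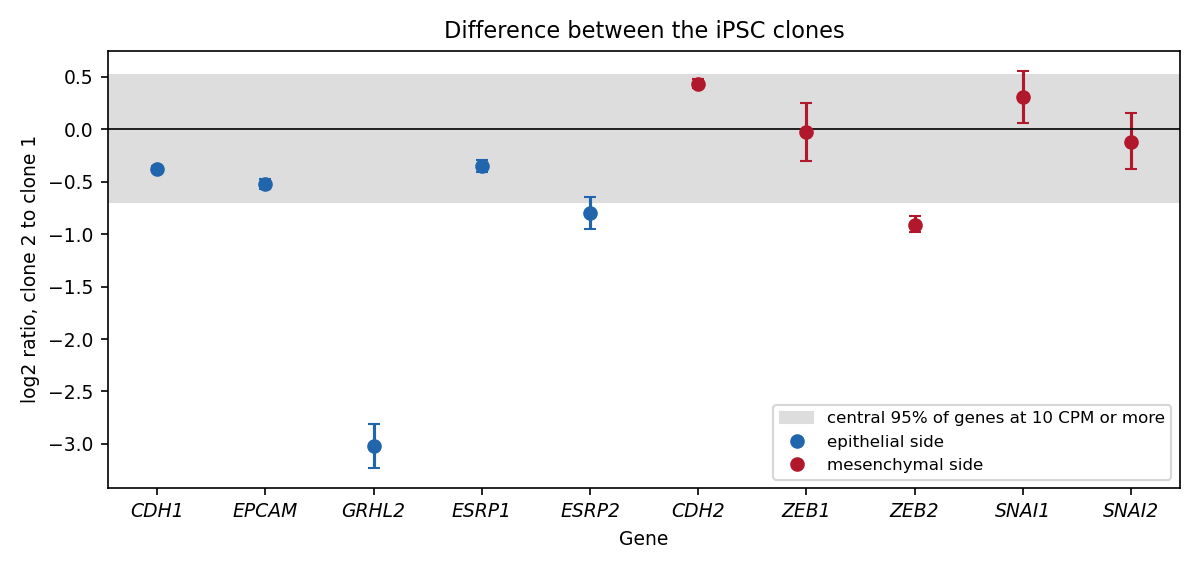
Log2 ratio of clone 2 to clone 1 for each gene with 95% exact conditional binomial intervals for counting error, over a grey band that holds the central 95% of genes at 10 CPM or more. GRHL2 at -3.02 lies far below the band, ESRP2 at -0.80 and ZEB2 at -0.91 lie just below it, and the other genes lie inside. ZEB1, SNAI1 and SNAI2 were under 10 CPM in both clones, so they are not among the genes that set the band.

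Other genes of the same pathway were counted in lists by role, for which no list test was made. The shares over all genes, to be read beside each count, were 29.6% higher and 28.2% lower in iPSCs against fibroblasts. Against iNSLCs they were 13.2% and 14.2%. For iNSLCs against fibroblasts by size they were 9.20% and 8.88%. Of the 16 other transcription factors known to promote the mesenchymal state, 8 fell, 3 rose and 5 were not called in iPSCs against fibroblasts (median log2 ratio -0.98). The largest falls were of PRRX2 (83.7-fold, from 203 CPM), PRRX1 (18.7-fold, from 1120 CPM, with 11.9-fold in clone 1 and 44.2-fold in clone 2), TBX2 (16.9-fold) and TWIST1 (11-fold, from 51.6 to 5.66 and 3.76 CPM), homeobox, T-box and basic helix-loop-helix factors of limb and facial mesenchyme. TCF3, which binds the same E-box sequences as SNAI1, rose 2.19-fold. Against iNSLCs 7 fell and 2 rose, with MSX1 6.82-fold lower and TBX2 3.73-fold higher.

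The 16 other epithelial transcription factors rose in 10 cases and fell in none, with 6 not called (median log2 ratio 4.14). FOXA2, a factor of endoderm, had 0 counts in fibroblasts and 30.4 and 24.6 CPM in the clones, at least 424-fold higher against the floor of 3 counts in the fibroblast library. FOXA1 rose 83.8-fold and ELF3 47.9-fold. The GRHL2 paralog GRHL3 had 6 counts in fibroblasts, 15.7 CPM in iNSLCs and 6.0 and 1.75 CPM in the clones, a rise of 29.9-fold that was 46.3-fold in clone 1 and 13.5-fold in clone 2. Against iNSLCs, FOXA2, FOXA1 and KLF5 rose (27.2, 3.48 and 4.13-fold), and TFAP2A and GATA3, factors of surface ectoderm and neural crest or of trophoblast and epidermis, fell (17.0 and 3.09-fold). Mesendoderm markers, a list that includes FOXA2, summed to 16 CPM in fibroblasts, 43.6 in iNSLCs, 567 in clone 1 and 526 in clone 2.

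Junction and polarity genes of epithelia mostly rose. Of 27 tested, 22 rose, PPL alone fell (2.11-fold) and 4 were not called in iPSCs against fibroblasts, with a median log2 ratio of 5.36. The membrane protease ST14 rose 468-fold, the claudin CLDN3 273-fold, the tight junction scaffold CGN 187-fold and the tricellular junction protein MARVELD2 185-fold. Against iNSLCs, 18 rose and EVPL alone fell (11.4-fold, with 6.78-fold in clone 1 and 36.4-fold in clone 2), and the rises were smaller, with a median log2 ratio of 1.05. Occludin (OCLN) had 0.95 CPM in fibroblasts, 26.1 in iNSLCs, 186 in clone 1 and 163 in clone 2, a rise of 6.69-fold over iNSLCs. In iNSLCs against fibroblasts, 16 of the 21 genes at 10 CPM or more were at least 4-fold higher and 1 was lower.

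The partners of the cadherins were already abundant in fibroblasts. Of 14 genes of the cadherin-catenin complex, 10 rose, 3 fell and 1 was not called in iPSCs against fibroblasts (median log2 ratio 0.68). Catenins of the classical cadherin complex, named here after their values were seen, had small ratios: CTNNB1 rose 1.59-fold from 589 CPM, CTNNA1 1.39-fold from 488 CPM and CTNND1 1.33-fold from 275 CPM. The largest rises were of the cadherin CDH6 (228-fold, to 117 and 139 CPM) and of the neural catenin CTNND2 (183-fold, from 8 counts). Vinculin (VCL), the mesenchymal cadherin CDH11 and NECTIN3 fell, and the direction of VCL turned with total-count scaling (10 rises and 1 fall in the list).

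Transcripts whose splicing ESRP1 and ESRP2 regulate showed no common direction in their totals. Of 15, 4 rose, 6 fell and 5 were not called in iPSCs against fibroblasts (median log2 ratio -0.12), beside 29.6% higher and 28.2% lower over all genes. The split was 8 rises and 3 falls with total-count scaling. The hyaluronan receptor CD44 fell 9.10-fold, from 370 CPM to 43.8 and 37.4, and the actin regulator ENAH fell 3.35-fold. FGFR2, the best known ESRP target, had 117 CPM in fibroblasts, 146 in iNSLCs, 121 in clone 1 and 146 in clone 2, with no call (edgeR adjusted p = 0.330). Gene totals do not separate isoforms, so splicing was not analysed here.

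Among the 12 other splicing regulators of the switch, 7 rose and 2 fell against fibroblasts (median log2 ratio 1.0). RBM47, an RNA-binding protein of epithelia, rose 111-fold, to 52.1 and 33.9 CPM, and MBNL1 fell 10.6-fold, from 659 to 96.6 and 28.2 CPM, which was 6.82-fold in clone 1 and 23.3-fold in clone 2. RBFOX1, a neuronal splicing factor, had 2 counts in fibroblasts, 15.3 CPM in iNSLCs and 2.36 and 3.54 in the clones, and it was the only gene of the list called between iPSCs and iNSLCs, with a fall of 5.19-fold.

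All 22 mesenchymal effector genes fell in iPSCs against fibroblasts (median log2 ratio -4.05), and 20 did with total-count scaling and with DESeq2, where CDH11 and TAGLN lost their calls. The fibrillar collagen genes COL1A2, COL5A2, COL1A1 and COL3A1 fell 188, 172, 152 and 132-fold. COL1A1, COL1A2, COL3A1 and THY1 are fibroblast markers too, so this list moved with that one. Vimentin (VIM), the intermediate filament of mesenchymal cells, had 13443 CPM in fibroblasts, 970 in iNSLCs, 740 in clone 1 and 725 in clone 2.

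Against iNSLCs, 11 of the 22 effector genes fell, 7 were not called and 4 rose. The collagens again led the falls, with COL3A1 115-fold, COL1A1 50.9-fold, COL1A2 48.3-fold and COL5A2 35.5-fold lower. Among those that rose were TAGLN (5.57-fold), ACTA2 (3.94-fold) and ITGA5 (3.31-fold), named after their values were seen. TAGLN had only 10 counts in iNSLCs. ACTA2, smooth muscle actin, had 2562 CPM in fibroblasts, 27.8 in iNSLCs, and 97.1 and 122 in the clones. SNAI1, at 4.92 CPM in iNSLCs and 7.94 and 9.84 in the clones, also had its lowest level in iNSLCs. The iPSC medium held TGF-β1 and activin A, and the sources used here do not give the composition of the iNSLC medium. The part of the medium in the values of these genes, those that fell as well as those that rose, was not tested.

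The signals that act on the switch were mixed. Of 20 tested, 6 rose, 7 fell and 7 were not called in iPSCs against fibroblasts (median log2 ratio -0.21). Over all genes 29.6% were called higher and 28.2% lower, so these counts were close to the background. The split was 8 and 5 with total-count scaling. TGFBR2, the type II TGF-β receptor, had 369 CPM in fibroblasts, 117 in iNSLCs, 13.1 in clone 1 and 12.3 in clone 2, and it fell 29.1-fold against fibroblasts and 9.20-fold against iNSLCs. The coreceptor TGFBR3 fell 10.9-fold and 8.87-fold in the same comparisons. HMGA2, a chromatin protein and target of let-7, rose 177-fold against fibroblasts. The ligand genes INHBA and TGFB1 rose 25.6-fold and 21.0-fold against iNSLCs, with INHBA at 34.7-fold in clone 1 and 16.5-fold in clone 2.

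Cofactors and turnover genes of SNAI and ZEB proteins rose in 10 of 17 cases and fell in 4 against fibroblasts (median log2 ratio 1.0, and 13 and 1 with total-count scaling). The histone methyltransferase EZH2 led (log2 ratio 2.23), followed by the ZEB corepressor CTBP2 (3.37-fold) and the deacetylases HDAC1 (3.27-fold) and HDAC2 (3.20-fold). The enzymes and corepressors were thus present at 242 CPM or more for CTBP2 and 377 or more for the deacetylases in clones where ZEB1 and SNAI2 were below 10 CPM. Precursors of the microRNAs of the miR-200 family and miR-205, which target the ZEB transcripts, were found in 2 cases of 6 and had 2 counts or fewer in every library, too few for a statement.

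**Figure D5:**
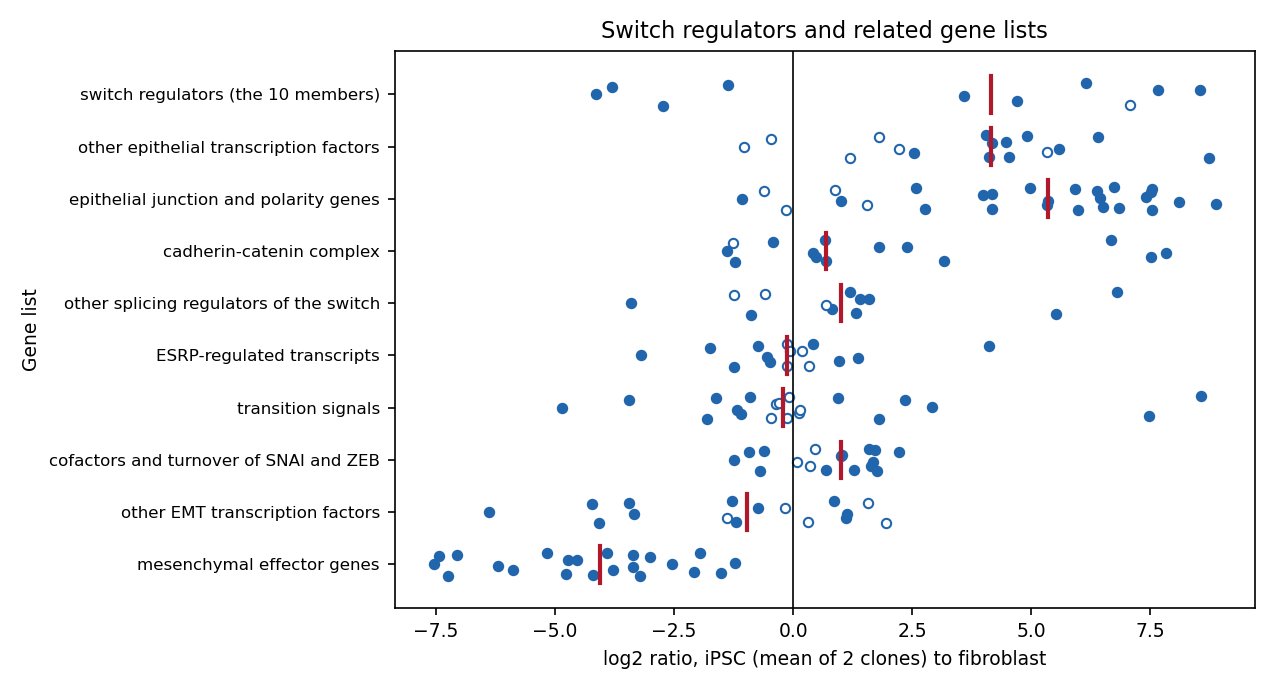
Log2 ratio of iPSCs (mean of 2 clones) to fibroblasts for each tested gene of the switch regulators and of the related lists, filled where the edgeR adjusted p was under 0.05 and open where it was not, with a red bar at each list's median. Most epithelial junction genes lie above 0, spread widely around their median of 5.36, and the mesenchymal effectors all lie below 0 around -4.05, whereas the ESRP-regulated transcripts and the signals straddle 0.

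The genes whose profiles over the 4 libraries lay closest to each member were found among 10205 named genes at 10 CPM or more in any library, by Euclidean distance of centred log2(CPM + 1) values. With 4 points such a likeness is a description only. Nearest to CDH1 were ZIC2, NUP210 and SOX2, nearest to EPCAM were ST14, SLC7A3 and SHROOM3, and nearest to ESRP1 were CGN, TDH and MARVELD2. CDH2 had the closest match of all, FRMD5 at a distance of 0.0268, followed by IGSF3 and GRAMD1C.

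GRHL2 had no close match, with KCNK5 at 1.01 and DIRAS3 at 1.10, both higher in clone 1 than in clone 2. ESRP2 was nearest to CXCL13, CDS1 and RASGRP1. ZEB1 was nearest to CYP1B1, SEC16B and NTN4 and ZEB2 to TM4SF1, LRRC41 and CDH11, another cadherin of mesenchyme. SNAI1 was nearest to PDE1C, ZBTB7C and MOCOS, and genes close to SNAI2 included MDFIC at a distance of 0.124 and AHR at 0.157.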

How the data were processed

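RNA sequencing of 4 libraries was analysed from deposited tables of raw counts, which the authors made by counting reads per gene. The submitters' processing notes name Trim Galore 0.4.0, STAR 2.5.3a, featureCounts 1.5.2 and Sscrofa11.1. The strand setting and annotation release are not given in the sources used here. Groups came from the labels.

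The counts, whole and not normalized, covered 25880 genes, of which 19280 had a count. Symbols came from identifiers for 14857 genes and from position for 1808 (at least 80% of the counted gene within a RefSeq gene and at least 15% of the RefSeq gene covered, or 80% of a coding RefSeq gene covered). This rule was set, and loosened, after listed genes were seen to be unmatched. For 13001 genes with both, 95.0% of symbols were the same.

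Counts were scaled by TMM and tested with the edgeR quasi-likelihood F test (edgeR 4.0.16, limma 3.58.1, R 4.3.3; two-sided), with all 4 libraries in 3 groups, filterByExpr, p-values adjusted by Benjamini-Hochberg over 15739 genes and called under 0.05. The sole residual degree of freedom came from the clones, so the lone libraries were assumed to vary like them. The current form of the method (legacy = FALSE) was taken as main, in keeping with earlier processing of these data, after results of both forms had been seen. GRHL2 passes with the older form. On simulated counts with changes between iPSCs and fibroblasts in 100 genes at each size, 96% of 4-fold and 100% of 16-fold changes were recovered among 15417 genes, with 8 false calls. The simulation gave every gene and library the same dispersion, and changed genes were drawn above a minimum level. It therefore cannot check whether the lone libraries vary like the clones. Nor does it cover genes with a wider spread, and far fewer genes were changed in it than were called here.

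Fold changes are ratios of scaled CPM, with libraries under 3 counts raised to 3. A standard error is the fitted log2 ratio over the square root of F. Comparisons of single libraries have 95% exact conditional binomial intervals and no p-value (scipy 1.17.1, Python 3.11.15). Total counts were 62421521, 25784594, 21640374 and 41296933 in fibroblasts, iNSLCs, clone 1 and clone 2, so that 3 counts were 0.0648, 0.105, 0.127 and 0.0656 CPM.

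The 10 genes and the 10 pathway and 7 marker lists were chosen with earlier results of these data known. Named are the 10 genes, up to 4 called genes per pathway list and comparison by size of ratio, listed genes not called, up to 4 markers per list and the 3 nearest profiles per gene, with exceptions stated. Repeats used total-count or RLE scaling, other filters on low counts, DESeq2 1.42.0, fewer libraries, leaving out a clone, a 1 CPM minimum and raw ratios. The older quasi-likelihood form and robust dispersions were added after the data were seen. Some genes that these rules name are not reported here. Sequences are not shown.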

Additional observations from a re-analysis of the deposited data

How the results depend on the processing

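The direction of each of the 10 genes in iPSCs against fibroblasts held under all alternatives run. Of 240 repeats of single-gene values, 217 kept direction and side of the threshold, and of 120 repeats of counts, list medians and pair ratios, 95 stayed within their limits. With total-count scaling, genes called against fibroblasts numbered 7265 higher and 2754 lower, the median of the mesenchymal members was -2.16, genes at least 4-fold lower in iNSLCs numbered 508, and the log2 ratio of ZEB2 in iNSLCs to fibroblasts turned to 0.04. These shifts follow from the scaling itself, which moves ratios to the fibroblasts by 0.57 or 0.58. GRHL2 in iPSCs against fibroblasts passed with total counts (adjusted p = 0.0283, edgeR), a 1 CPM filter (0.0499), DESeq2 (0.000861), the 3 libraries compared (0.0479) and the older quasi-likelihood form (0.0312), but not with RLE scaling (0.0545), no filter (0.108) or robust dispersions (0.0764). ZEB2 lost its call with total counts (adjusted p = 0.101, edgeR), no filter (0.0711), DESeq2 (0.118) and robust dispersions (0.0532). Against iNSLCs, no filter left 1340 genes and 1 member (EPCAM) called higher, and the 3 libraries compared left 1 member (ZEB1) called lower. The cause was not tested.

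Leaving out a clone leaves no residual degree of freedom, so it gave values without a test. The median of the mesenchymal members against iNSLCs was between -0.88 and -0.45. Without clone 1 the log2 ratios to iNSLCs of CDH2 and GRHL2 turned to 0.03 and -1.68 (-0.40 and 1.34 without clone 2), and GRHL2 against fibroblasts was 4.88. A 1 CPM minimum gave 2078 genes higher by size in iNSLCs and, between clones, 237 higher and 426 lower. Ratios of raw counts, without length, turned CDH1 to CDH2 in iNSLCs to log2 0.02 and ZEB1 to ZEB2 to -1.26 in fibroblasts and -1.57 in iNSLCs. Those that moved without turning were, for fibroblasts, iNSLCs, clone 1 and clone 2 where given, CDH1 to CDH2 at 1.51 and 0.69 in the clones, SNAI1 to SNAI2 at -1.13, -1.40, 0.06 and 0.49, ZEB1 to ZEB2 at -4.06 and -3.19 in the clones, and ESRP1 to ESRP2 at 2.59, 2.27 and 2.71 in iNSLCs and the clones. No paired analysis was possible because all libraries came from 1 animal, with 1 fibroblast and 1 iNSLC library. GRHL2, EPCAM and ESRP2 had 8, 26 and 42 counts in fibroblasts, which limits their ratios, and with 1 fibroblast and 1 iNSLC library the spread between cultures is unknown.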

Other observations

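Of the 236 listed genes found by name, CRB3, PRSS8, NOTCH1, RCOR1 and MIR429 had 0 counts in every library. CRB3 and PRSS8 are epithelial junction and protease genes, while NOTCH1 and RCOR1 are used by many cell types, so a count of 0 in every library describes the counted gene models and was not read as a lack of expression.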
